A study of Oncorhynchus mykiss with 15 samples.

Results

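A set of 88 genes of the rainbow trout (Oncorhynchus mykiss) was low in mature adipocytes of visceral fat alone. Their transcripts stood at like levels in subcutaneous and intramuscular fat. The genes were chosen by their measured levels, out of 64494 genes in the count table and 25695 genes with enough counts to test. Levels are given as TMM CPM, which are counts scaled to a common library size after a step, the trimmed mean of M values, that corrects for differences in library make-up. A gene was taken when its mean was at least 10 CPM in subcutaneous fat and in intramuscular fat, when these means lay within 2-fold of each other, and when its lowest library of those depots exceeded 2 times its highest visceral library. Genes that stood above all other libraries in subcutaneous fat were to be left out, and this step removed 0 genes. Fat was dissected from 3 depots, namely the visceral fat around the inner organs (VAT), the subcutaneous fat under the skin (SAT) and the intramuscular fat between muscle fibres (IMAT), with 5 libraries of each. Every group was untreated, and all fish were adults held at 15 °C, fed a commercial diet and fasted for 24 h before sampling. No genotype or strain is given in the labels, and they tie no library to a fish and do not mention pooling of animals. The adipocytes were freed with collagenase type II, so each library is a bulk preparation of many cells.

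Fish adipocytes, like those of mammals, store energy as triglyceride in a lipid droplet and release it as fatty acids when food is short. In salmonids the visceral depot is a major lipid store, and fat laid down between muscle fibres affects the quality of the flesh. Depots differ in developmental origin and in the tissue around them. In these bulk preparations fewer cells of a type and less RNA per cell cannot be told apart.

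The count table identifies genes by Ensembl identifier only. Of these identifiers, 0 could be matched to a name, so no gene function is stated for any member and no sequence is shown. The cell type in the labels was not checked against marker genes for the same reason, and the part of other cell types in the results was not tested. Identifiers are printed for 2 members with the widest separation and for 4 members at the ends of the range between IMAT and SAT. The most abundant member and 1 member that passed a test were added after their values had been seen.

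Total counts ran from 5872244 to 9414223 in the VAT libraries, from 4203986 to 7243006 in SAT and from 2413951 to 4199494 in IMAT. At these depths 3 counts were worth 0.28 to 0.466 CPM in a VAT library, 0.448 to 0.569 CPM in a SAT library and 1.09 to 1.44 CPM in an IMAT library. Certain libraries stood apart from the others of their depot. IMAT replicate 2 had a TMM factor of 0.501, against 0.894 to 1.14 in the other IMAT libraries. VAT replicate 5, SAT replicates 4 and 5 and IMAT replicate 5 had the most detected genes and the highest TMM factors of their depots. When VAT 5, SAT 4 and SAT 5 were left out, the rule took 107 genes, of which 78 were among the 88. When IMAT 2 and IMAT 5 were left out as well, it took 142 genes, of which 72 were among the 88. Fewer libraries make the rule easier to meet.

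The separation of VAT was uncommon among genes with like levels in the other depots. Of the 25695 genes tested, 10982 averaged at least 10 CPM in SAT and in IMAT, and 9904 of these also had means within 2-fold of each other. Every SAT and IMAT library lay above every VAT library for 253 of the 9904 genes, and the 2-fold margin was met by 88, which is 0.889% of these and 0.342% of all genes tested. Across all genes tested, whatever their level, 3.65% had no overlap of this kind. The 88 genes were chosen by these values, which are given as a description with no test.

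**Figure D1:**
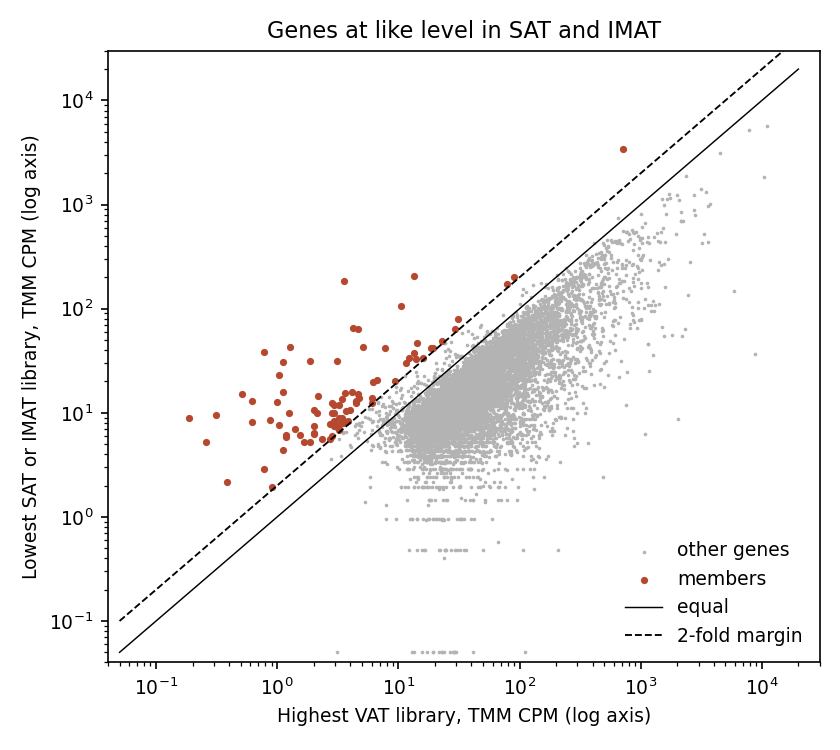
The highest VAT library (x axis) is plotted against the lowest SAT or IMAT library (y axis), both in TMM CPM on log axes, for 9904 genes with like means in SAT and IMAT. Values under 0.05 CPM are drawn at 0.05 CPM. The 88 members lie above the dashed line of the 2-fold margin, and the most abundant member lies apart at the upper right of the members.

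The margin, which is the lowest SAT or IMAT library divided by the highest VAT library, ran from 2.06 to 51.8 with a median of 3.35. It was between 2 and 3 for 37 members, between 3 and 5 for 23, between 5 and 10 for 9, between 10 and 20 for 9 and at least 20 for 10. The margin was thus under 3 for 42.0% of the members. The members just inside it had margins of 2.06 and 2.08, and the genes just outside had 1.99 and 1.97. Another 35 genes met the other conditions with a margin between 1.5 and 2. The ratio condition kept out 92 genes that met the level and the margin, and IMAT was the higher depot in 83 of them and SAT in 9. The members closest to this limit had means 1.98-fold and 1.99-fold apart, and the genes just outside had 2.01-fold and 2.02-fold. The level condition kept out 44 genes that met the ratio and the margin. The members nearest to that limit had lower means of 10.1 and 10.3 CPM, and the genes just under it had 9.35 and 9.23 CPM.

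The members covered a wide range of levels. Averaged over the 10 SAT and IMAT libraries, 23 members lay between 10 and 20 CPM, 39 between 20 and 50 CPM, 13 between 50 and 100 CPM and 12 between 100 and 1000 CPM, and 1 lay above 1000 CPM. The median member averaged 24.7 CPM in SAT, 31.8 CPM in IMAT and 1.98 CPM in VAT. Mean VAT levels ran from 0.0571 to 644 CPM, and 25 of the 88 members averaged under 1 CPM there while 9 averaged at least 10 CPM. Levels are not corrected for gene length, so they rank transcripts by reads and not by molecules.

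The mean of the SAT and IMAT means was 5.13 to 315 times the VAT mean, with a median of 14.1. This ratio was between 5 and 10 for 29 members, between 10 and 20 for 25, between 20 and 50 for 15, between 50 and 100 for 12 and at least 100 for 7. No member thus had a ratio under 5 when the SAT and IMAT means were averaged. Against SAT alone or IMAT alone, the difference was under 5-fold for certain members. In the edgeR fit described below, the smallest differences were log2 fold changes of -2.10 against SAT and -2.03 against IMAT. The rule asked for a 2-fold gap between the nearest libraries, and with the spread within depots such a gap puts the means further apart. 

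**Figure D2:**
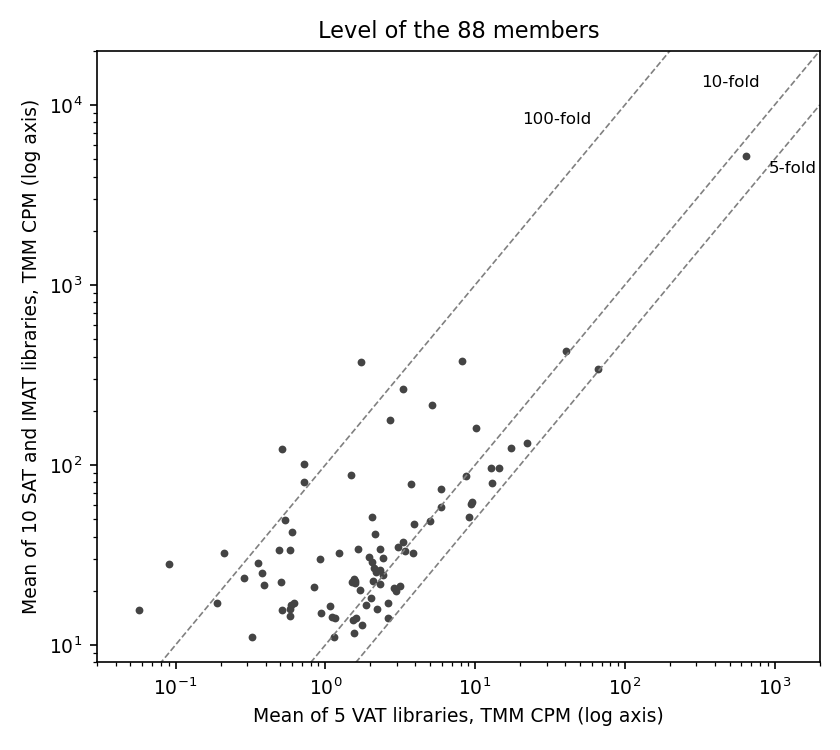
Each point is 1 of the 88 members, with the mean of the 5 VAT libraries on the x axis and the mean of the 10 SAT and IMAT libraries on the y axis, both in TMM CPM on log axes. Dashed lines mark 5-fold, 10-fold and 100-fold differences, and 7 members had a ratio of at least 100.

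ENSOMYG00000020373 had the widest margin. Its level was 0.372, 0.466, 3.56, 2.18 and 2.05 CPM in VAT replicates 1 to 5. It was 427, 442, 468, 348 and 184 CPM in SAT replicates 1 to 5. In IMAT replicates 1 to 5 it was 395, 478, 390.1, 283 and 318 CPM. No VAT library came near the others, and the lowest library outside VAT was SAT replicate 5, at 51.8 times the highest VAT library. The means were 1.73 ± 1.33 CPM in VAT (SD, n = 5), 374 ± 115 CPM in SAT and 373 ± 75.8 CPM in IMAT. Pooled over libraries and scaled, SAT held 202 times the VAT level (95% exact Poisson interval 162 to 254), from 11529 and 81 counts. IMAT held 196 times the VAT level (158 to 248), from 4352 counts. These intervals cover counting error only.

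ENSOMYG00000021524 followed with a margin of 49.3 at a lower level. It had 0.745, 0.311, 0.593, 0.771 and 0.28 CPM in VAT replicates 1 to 5. It had 57.4, 58.0, 62.6, 43.0 and 45.1 CPM in SAT and 38.0, 47.4, 45.6, 53.1 and 46.7 CPM in IMAT, in the order of the replicates. The VAT libraries held 23 counts in all, and none of them reached 1 CPM. The SAT and IMAT libraries of this gene lay close together, with means of 53.2 ± 8.65 CPM (SD, n = 5) and 46.2 ± 5.42 CPM. The pooled ratio to VAT was 99.96 for SAT (95% exact Poisson interval 66.4 to 158) and 86.3 for IMAT (56.9 to 137).

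ENSOMYG00000030077 was the most abundant member, and it stayed well above the floor in VAT. Its VAT levels were 650.5, 693, 668, 716 and 490.1 CPM in replicates 1 to 5. In SAT they were 5561, 5791, 7480, 4599 and 3419 CPM, and in IMAT 5541, 5210, 5437, 4572 and 4260 CPM. The groups did not overlap, and the lowest library outside VAT, SAT replicate 5, was 4.77 times the highest VAT library. The means were 644 ± 89.3 CPM in VAT (SD, n = 5), 5369.9 ± 1505 CPM in SAT and 5004 ± 561 CPM in IMAT. With 27288 counts in VAT, counting error was small, and the pooled ratio was 8.58 for SAT (95% exact Poisson interval 8.47 to 8.70) and 7.86 for IMAT (7.75 to 7.97). The spread between libraries was much larger than these intervals. VAT replicate 5 and SAT replicate 5 were the lowest of their depots, as they were for many members.

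**Figure D3:**
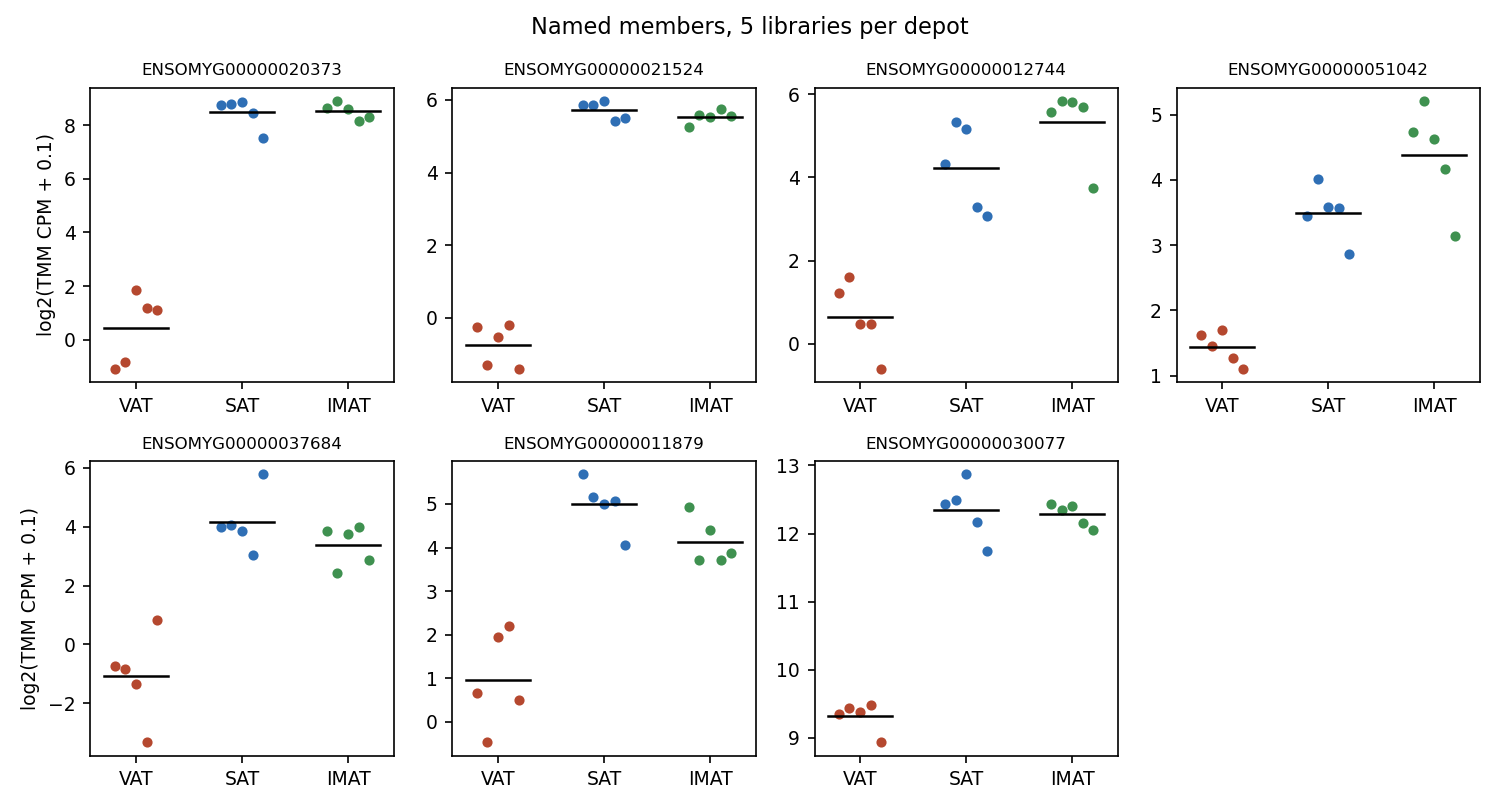
The level of 7 named members is plotted as log2(TMM CPM + 0.1) for each library, with the depots on the x axis and a bar at the mean of the 5 plotted values. The scales differ between the panels. In each panel the VAT points lie below all SAT and IMAT points, and the SAT and IMAT points overlap.

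The visceral level was low, but no member was at 0 in every VAT library. This also held for all 9904 genes with like means in SAT and IMAT. Each of the 5 VAT libraries held at least 1 count for 76 of the 88 members. At least 1 VAT library was at 0 for the other 12. Of the 88 members, 38 had at least 10 counts in every VAT library, so their VAT levels were measured well above the floor. A single member had as few as 3 counts in all VAT libraries together, too few to say whether it was expressed there. Outside VAT, 86 members had at least 10 counts in every SAT and IMAT library. Between 8 and 16 members had 3 counts or fewer in a given VAT library, and 0 did in any SAT or IMAT library.

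Together the members took a small share of each library. Their summed counts were 0.0823% to 0.121% of a VAT library, 0.863% to 1.22% of a SAT library and 0.543% to 1.14% of an IMAT library. The mean share was 0.109% ± 0.0162 (SD, n = 5) for VAT, 1.08% ± 0.137 for SAT and 0.913% ± 0.236 for IMAT. IMAT replicate 2 was the lowest IMAT library by this share, at 0.543%, and its median member stood at 36.2 CPM, the second highest in IMAT after replicate 3. That library has the TMM factor of 0.501, so its share and its CPM rank differently. ENSOMYG00000030077 alone made up 0.0691% ± 0.00821 of a VAT library, 0.555% ± 0.0883 of a SAT library and 0.436% ± 0.104 of an IMAT library. The other members together took 0.0402% ± 0.00823, 0.524% ± 0.0606 and 0.477% ± 0.142. The rule fixes the direction of these differences, which were not tested.

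**Figure D4:**
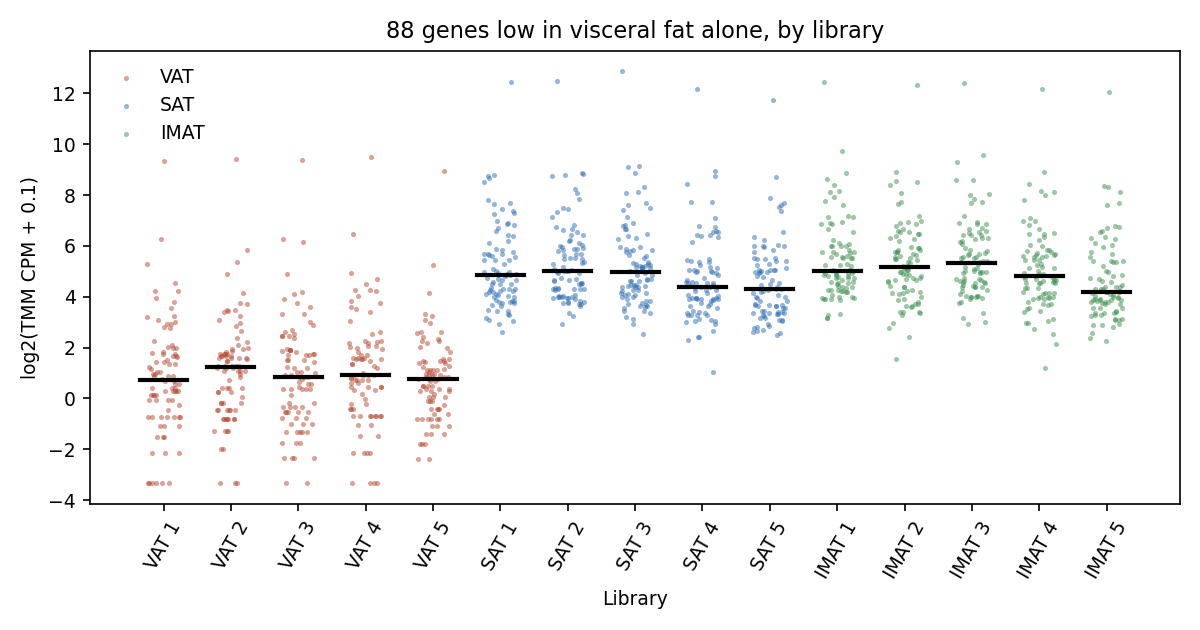
Each point is 1 of the 88 members in 1 library, as log2(TMM CPM + 0.1), with the libraries on the x axis, and black bars mark the median. Median levels were 1.55 to 2.25 CPM in the VAT libraries, 19.5 to 32.2 CPM in SAT and 18.1 to 39.8 CPM in IMAT.

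Between SAT and IMAT the means of each member stood within 2-fold of each other, as the rule asks. The rule bounds this ratio, so it is a description only. The IMAT mean was the higher for 60 members and the SAT mean for 28, and the ratio of IMAT to SAT ran from 0.51 to 1.99 with a median of 1.15. It lay between 0.8 and 1.25 for 41 members. The SAT and IMAT libraries overlapped for all 88 members, and they did not overlap for 9.19% of all genes tested. In edgeR's quasi-likelihood F-test, fitted on all genes of the 15 libraries and adjusted by Benjamini and Hochberg's method, 1 member was higher in IMAT and 0 were lower, against 7.35% and 3.22% of all genes tested. Before adjustment 14 members had a p under 0.05 in that test. The share of all genes under that unadjusted limit is not given, and the 2 shares above are no base for it. Genes with a large difference between these depots could not become members, so nothing is read from these counts.

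ENSOMYG00000003808, the member that passed, had 32.0, 25.5, 15.8, 23.1 and 20.9 CPM in SAT replicates 1 to 5. In IMAT replicates 1 to 5 it had 48.8, 61.3, 41.4, 48.3 and 25.7 CPM. All IMAT libraries but replicate 5 lay above all SAT libraries. Its log2 fold change in IMAT against SAT was 0.94 (SE 0.283, adjusted p = 0.0396 in that edgeR fit), and its VAT libraries held 1.61 to 4.11 CPM. This call was not stable, since it held in 11 of 23 alternative fits. The log2 fold change lay between 0.78 and 1.08 in all of them. The call held in every fit that left out only a VAT library. Of the 10 fits that left out a SAT or IMAT library it held in 2, those without SAT replicate 1 and without IMAT replicate 5. Without SAT replicates 2, 3, 4 or 5 or IMAT replicates 1, 2, 3 or 4 the adjusted p of the same edgeR test was 0.0597 to 0.117. The gene also missed the threshold without a filter on low counts, in thinned libraries and without the 3 libraries VAT 5, SAT 4 and SAT 5. It missed it with edgeR's glmTreat too, which asks for a log2 fold change past 1. The rule keeps the SAT and IMAT means within 2-fold, so that miss, counted among the 23, was set beforehand and says nothing about stability. The call held with the replicate number as a block and with DESeq2 (adjusted p = 0.024 and 0.0108). In the same edgeR test it held when only SAT and IMAT were fitted (adjusted p = 0.0233). It also held there without the 5 libraries VAT 5, SAT 4, SAT 5, IMAT 2 and IMAT 5 (adjusted p = 0.0432). With the block 4 members in all were higher in IMAT, and with DESeq2 3 were. The shares of all genes called in these fits are not given, so nothing is read from these counts.

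The members with the highest ratio of IMAT to SAT were ENSOMYG00000012744 and ENSOMYG00000051042. ENSOMYG00000012744 had 19.8, 39.8, 35.9, 9.70 and 8.34 CPM in SAT and 47.6, 57.0, 56.3, 51.4 and 13.4 CPM in IMAT, in the order of the replicates, and 0.56 to 2.95 CPM in VAT. Within each of the upper depots, replicate 5 was the lowest library. ENSOMYG00000051042 had 10.8, 16.004, 11.9, 11.8 and 7.20 CPM in SAT and 26.4, 36.9, 24.7, 17.8 and 8.68 CPM in IMAT, and 2.05 to 3.16 CPM in VAT. Its lowest libraries in SAT and IMAT were again the replicates numbered 5. The IMAT means were 45.1 ± 18.2 CPM (SD, n = 5) and 22.9 ± 10.5 CPM for these genes, and the SAT means were 22.7 ± 14.6 CPM and 11.5 ± 3.14 CPM. The log2 fold change of ENSOMYG00000012744 in IMAT against SAT was 0.99, and 0.79 to 1.27 without single libraries. It was 0.49 without VAT 5, SAT 4 and SAT 5, and 0.71 without IMAT 2 and IMAT 5 as well. For ENSOMYG00000051042 it was 0.98, and 0.72 to 1.19 without single libraries.

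At the other end were ENSOMYG00000037684 and ENSOMYG00000011879. ENSOMYG00000037684 had 15.8, 16.7, 14.3, 8.20 and 54.8 CPM in SAT and 14.4, 5.27, 13.5, 15.7 and 7.24 CPM in IMAT. SAT replicate 5 was the highest library here, opposite to most members, and it set much of the SAT mean of 22.0 ± 18.6 CPM (SD, n = 5). Without it the log2 fold change in IMAT against SAT was -0.28, where it was -0.97 with all libraries. VAT replicate 5 was also the highest VAT library of this gene, with 1.68 CPM against 0 to 0.496 CPM in the other VAT libraries. ENSOMYG00000011879 had 51.2, 35.8, 31.8, 33.3 and 16.7 CPM in SAT and 30.4, 12.9, 20.9, 13.1 and 14.5 CPM in IMAT, and 0.622 to 4.50 CPM in VAT. Its means were 33.8 ± 12.3 CPM in SAT (SD, n = 5) and 18.4 ± 7.48 CPM in IMAT, and the libraries overlapped.

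The fit across all genes gives the same separation on the log2 scale. The median log2 fold change of the members was -3.75 in VAT against SAT and -3.88 in VAT against IMAT, where the medians over all genes tested were 0.03 and 0.10. The members' values ran from -7.70 to -2.10 against SAT and from -8.35 to -2.03 against IMAT. All 88 members were called lower in VAT in both comparisons of that edgeR fit. Among all genes tested, 5.76% were lower in VAT than in SAT and 13.1% were lower in VAT than in IMAT. Both comparisons share the VAT libraries and were used by the rule, so nothing is read from the members' count.

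Within SAT and within IMAT, the members tended to shift together from library to library. The rule does not ask for this. Below their own depot mean of log2 CPM were 71 of the 88 members in SAT replicate 5 (80.7%), 62 in SAT replicate 4 (70.5%) and 78 in IMAT replicate 5 (88.6%). Among all 9904 genes with like means in SAT and IMAT, which include the members, the shares were 63.4%, 60.7% and 48.8% in these libraries. In the other SAT libraries 14.8% to 28.4% of the members were below their mean, and in the other IMAT libraries 22.7% to 54.5%. The median member lay 0.56 below its mean in SAT replicate 5 and 0.59 below in IMAT replicate 5 on the log2 scale (medians -0.56 and -0.59), while the median of those 9904 genes lay at -0.15 and 0.01.

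In VAT the medians of this measure spanned less, from -0.21 in VAT replicate 5 to 0.19 in VAT replicate 4. The members have few counts in VAT, and the prior count of 2 damps log2 differences at few counts. The depots are therefore not on a common base in this measure. The members' median coefficient of variation, given below, was largest in VAT. In VAT replicate 5, 63.6% of the members were below their mean, and in the other VAT libraries 35.2% to 52.3%. The 9904 genes are no match in level there, since their median VAT mean was 28.0 CPM and that of the members 1.98 CPM. VAT replicate 5, SAT replicates 4 and 5 and IMAT replicate 5 are the libraries with the most detected genes and the highest TMM factors of their depots. Detected genes numbered 43239 in VAT replicate 5, 46175 and 44738 in SAT replicates 4 and 5 and 35977 in IMAT replicate 5. Their part in the lower levels of the members was not tested. ENSOMYG00000037684, described above, went the other way in SAT replicate 5.

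**Figure D5:**
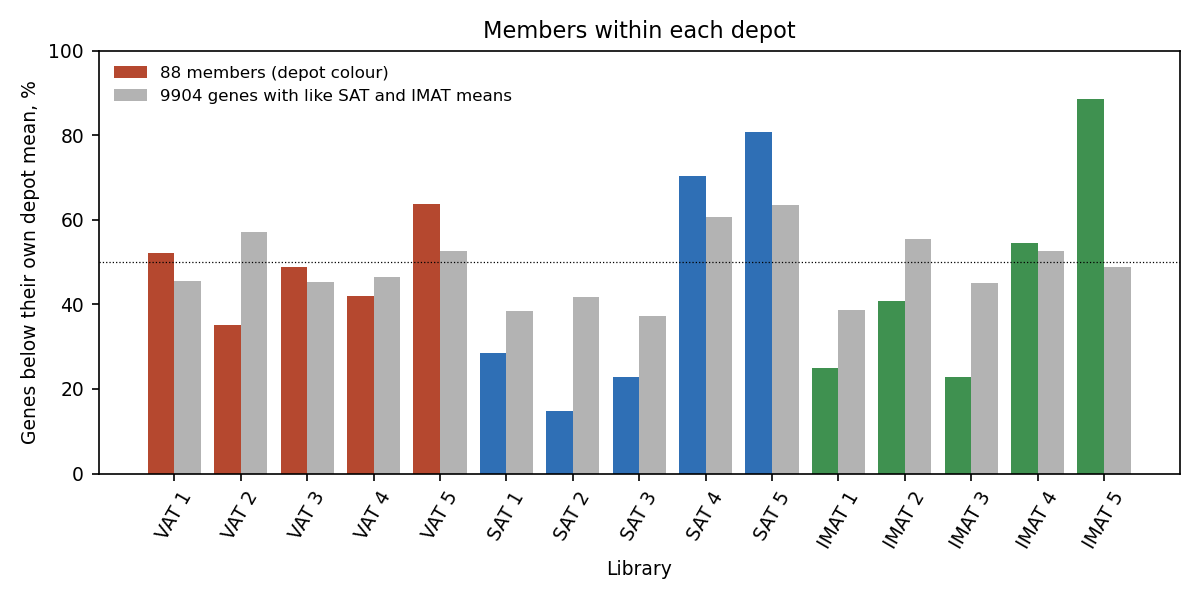
For each library on the x axis, the bars give the percentage of genes whose log2 CPM lay below their own mean over the 5 libraries of the depot. Coloured bars are the 88 members and grey bars the 9904 genes with like means in SAT and IMAT, which are at higher levels than the members in VAT, with a dotted line at 50%. The coloured bars are highest in SAT replicates 4 and 5 and in IMAT replicate 5, at 70.5%, 80.7% and 88.6%.

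SAT replicate 5 set the lower bound for the largest number of members. It was the lowest of the 10 SAT and IMAT libraries for 36 of the 88, followed by SAT replicate 4 with 14, IMAT replicate 5 with 12 and IMAT replicate 2 with 9. SAT replicate 2 was the lowest for 0 members. Of the 9904 genes with like means, 63.4% and 60.7% lay below their own depot mean in SAT replicates 5 and 4. In IMAT replicates 5 and 2 the shares were 48.8% and 55.5%. How often each library was the lowest is not given for those genes, so these counts are not read as particular to the members. Among the VAT libraries, replicate 4 was the highest for 34 members and replicate 2 for 25, while replicates 1 and 5 were the highest for 9 each and replicate 3 for 11.

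Each member's deviations over the 15 libraries were also compared with the median deviation of the other members. The correlation had a median of 0.45 over the 88 members, exceeded 0.5 for 39 of them (44.3%) and was negative for 4. For the other 9816 genes with like means in SAT and IMAT the median was 0.17, with 22.5% above 0.5 and 38.6% below 0. All points share library, depth and scaling, and the levels in VAT differ, so these values are a description.

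The members also had wide spreads between libraries of a depot, which are set here beside those of all genes of at least 10 CPM without a test. The median coefficient of variation over the 5 libraries of a depot was 36.6% in SAT and 40.0% in IMAT for the members, where it was 25.5% over 12148 genes in SAT and 34.6% over 12938 genes in IMAT. The members' value was above that median for 75 of the 88 members in SAT and for 62 in IMAT. Counting alone would give the median member 8.13% in SAT and 11.7% in IMAT, so most of the spread was between libraries. In VAT the members' median was 49.2%, and counting alone would give 24.6%, since they have few counts there.

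The choice of members was repeated with each library left out in turn, and the left-out library, which that choice did not use, was then compared with the others. Its CPM was taken with scaling factors from all 15 libraries. Between 81 and 105 genes were chosen, of which 79 to 88 were among the 88. When a VAT library was left out, it lay below every SAT and IMAT library for 97.9% to 100% of the genes chosen without it, and past the 2-fold margin for 87.6% to 95.8%. A left-out SAT library lay above every VAT library for 98.9% to 100%, and past the margin for 87.9% to 100%. For IMAT libraries the shares were 98.0% to 100% and 89.9% to 98.9%. Among the 9904 genes with like means in SAT and IMAT a VAT library lay below every SAT and IMAT library for 6.83% to 18.0%, and a SAT or IMAT library lay above every VAT library for 12.5% to 29.4%. Those 9904 genes were not chosen for a gap, whereas the genes chosen had a 2-fold gap among the libraries that chose them. High shares were therefore likely beforehand. The labels do not say that libraries came from separate fish, so the shares are a description only. SAT replicate 5 and VAT replicate 4 were the libraries that most often fell short of the margin when left out, and they still lay on the side of their depots for 99.0% and 98.1% of the genes.

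The same rule with the depots exchanged took 0 genes as low in SAT alone and 1 gene as low in IMAT alone, without the step on genes highest in SAT. The gene low in IMAT, ENSOMYG00000046841, averaged 147 CPM in VAT, 84.6 CPM in SAT and 15.7 CPM in IMAT. With all libraries thinned to 2413951 counts the numbers were 79 for VAT, 0 for SAT and 2 for IMAT. When the libraries had only to be free of overlap, with no margin, the numbers were 253 for VAT, 29 for SAT and 187 for IMAT. Without thinning, each number is out of the 25695 genes tested, of which the VAT numbers were 0.342% with the margin and 0.985% without it. The level and ratio conditions fall on a different pair of depots each time. The genes that could meet them therefore differ, and their number is given here for VAT only, so the numbers are not on a common base. The margin removed all 29 of the genes low in SAT and nearly all of the genes low in IMAT. The IMAT libraries were the most variable, with the median coefficient of variation of 34.6% given above. It was 25.9% over 12478 genes in VAT and 25.5% over 12148 genes in SAT. The part of this spread in the numbers was not tested. The counts of the 3 depots were not tested against each other.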

How the data were processed

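Gene expression was measured by RNA sequencing of mature adipocytes from 3 fat depots, with ribosomal RNA removed and reads of 150 bp in pairs, per the labels' protocols. The raw counts per gene were deposited by the authors. The submitters' processing notes name Trimmomatic 0.30, STAR 2.5.2b, featureCounts of Subread 1.5.2 and DESeq2 1.6.3. Not given in the sources used here are the genome build, the annotation, the strand setting and how reads with several matches were treated. Trout genes often have similar copies, so counts of near-identical or overlapping genes are uncertain. The supplied gene table, of assembly USDA_OmykA_1.1, carried 0 Ensembl identifiers, and the marker and pathway lists could not be matched or used.

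The members and lists were chosen with earlier results of these data known. Genes were kept by filterByExpr of edgeR 4.0.16 (R 4.3.3) (min.count 10, min.total.count 15), which left 25695 genes with 99.0% of all counts. CPM used TMM factors. Depots were compared in 1 quasi-likelihood fit over the 15 libraries, without covariates and with a threshold of 0.05 after Benjamini-Hochberg adjustment over all genes. Its SE is the log2 fold change divided by the square root of F. Deviations within depots were taken on log2 CPM (prior count 2). The named genes were the 2 members with the widest margin and the 2 with the highest and 2 with the lowest ratio of IMAT to SAT. The labels do not say that libraries came from separate fish, so p-values measure only the spread between these libraries. All 30 pairs of libraries within depots differed beyond counting noise (at least 6.37 chi-square per degree of freedom).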

Additional observations from a re-analysis of the deposited data

Results flagged for a closer look

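Among 36 groups of 5 libraries, covering 7 named members, 2 summaries of the members and 3 properties of the libraries, in 3 of them 1 library lay apart from its neighbour by over 0.71 of the group's range. Chance flags about 1 in 20 such groups (5%) when they are not picked by their values, and several of these measures are linked. The 7 named members were picked by their own values, so that share need not hold for their groups. IMAT replicate 5 had 13.4 CPM of ENSOMYG00000012744, and the other IMAT libraries had 47.6 to 57.0 CPM. SAT replicate 5 had 54.8 CPM of ENSOMYG00000037684, and the other SAT libraries had 8.20 to 16.7 CPM. IMAT replicate 2 had 4199494 counts in total, and the other IMAT libraries had 2413951 to 2655266. The causes were not tested.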

How the results depend on the processing

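The number of 88 members kept within 1.5 times under most settings, with 81 to 105 when single libraries were left out. It was 54 with a level minimum of 20 CPM, 51 with a margin of 3-fold and 57 with a limit of 1.5-fold between SAT and IMAT, settings that ask for more by construction. It was 142 without the 5 libraries VAT 5, SAT 4, SAT 5, IMAT 2 and IMAT 5. This setting, added once the values were known, leaves fewer libraries to meet the rule, as does the one without the first 3. With plain CPM from library totals 85 genes were taken, of which 67 were members, and with DESeq2's size factors 88, of which 86 were. Thinning to equal library totals, which leaves the TMM factors unequal, gave 79, of which 66 were members.

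The 88 members lower in VAT than in SAT stayed 88 in every fit run, and those lower than in IMAT were 87 or 88. Among all genes tested, the main fit called 5.76% lower in VAT than in SAT and 13.1% lower than in IMAT. The members were chosen by these differences over all 15 libraries, so nothing is read from their steady number. The number higher in IMAT than in SAT was 1 and ranged from 0 to 3 when single libraries were left out. It was 0 without a filter on low counts and without the 3 libraries VAT 5, SAT 4 and SAT 5, 3 with DESeq2 and 6 without the 5 libraries. It was also 0 with edgeR's glmTreat at a log2 limit of 1. The rule's 2-fold bound between SAT and IMAT set that result beforehand, so nothing is read from it. The number lower in IMAT was 0, and it was 1 without the 3 libraries and 3 without the 5. With the replicate number as a block, 4 were higher in IMAT. The main fit called 7.35% of all genes tested higher and 3.22% lower in IMAT. Such shares are not given for the other fits, so nothing is read from their counts of members. Same-numbered libraries of different depots had correlations of their deviations from -0.13 to 0.53, over 0.1 in 9 of 15 pairs. They exceeded 0.1 in all 3 pairs of depots for replicates 1, 3 and 5 and in 0 for replicates 2 and 4, and 10 of 30 best matches were to the same number. With 5 numbers, about 1 in 5 matches would fall on the same number by chance. The matches reuse the same 15 libraries, so they are not independent. The labels do not say what a number marks, so whether it pairs the libraries is not known, and the fit without the block was kept. Counting alone would give the median member a coefficient of variation of 11.7% in IMAT, where the observed median was 40.0%.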
